A study of Mus musculus with 8 samples.

Results

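Cyclic nucleotide phosphodiesterases are the enzymes that break down cAMP and cGMP. A set of 10 of their mouse genes was described here by histone H3 acetylated at lysine 27 (H3K27ac), out of 21887 protein-coding genes with a position on the autosomes, X and Y. The genes were Pde4a, Pde4b, Pde4c, Pde4d, Pde3a, Pde3b, Pde7a, Pde8a, Pde10a and Pde1a, and each was taken with its RefSeq gene span plus 50 kb on either side. The genes were selected from their known function and with the covered bases and pileup of the same peak lists already seen, so the values of the genes that stand out are a description and were not tested. The other 14 genes on those chromosomes that are named as phosphodiesterases were used only for counts beside them. They were taken by name, and whether each encodes an active enzyme was not considered.

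The lists come from chromatin immunoprecipitation in mpkCCD, a mouse cell line derived from the cortical collecting duct, of which 1 clone, number 11, was grown. Cells were grown to confluence on permeable supports, and both treatments had spent 24 h without serum and hormones beforehand. They then received 0.1 nM dDAVP, a vasopressin analogue selective for the V2 receptor, or its vehicle, for 24 h. The study comprised 2 experiments, each with 1 dDAVP and 1 vehicle immunoprecipitate and an input of each, and these give 4 peak lists. The labels do not say how far the cultures of the 2 experiments were independent, so the spread between them may be technical.

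In the principal cells of the collecting duct, vasopressin acts through the V2 receptor, the stimulatory G protein and adenylyl cyclase to raise cAMP, which activates protein kinase A and brings the water channel aquaporin-2 to the apical membrane. Phosphodiesterases end that signal by hydrolysing cAMP. The Pde4, Pde7 and Pde8 families are specific for cAMP, Pde3 enzymes hydrolyse cAMP and are slowed by cGMP, Pde10a accepts both nucleotides, and Pde1 enzymes accept both and need calcium and calmodulin. The Pde4 genes are long and use several transcript starts, which yield long and short enzyme forms. H3K27ac marks active promoters and enhancers, so the lists show where such chromatin was called at these genes, not how much enzyme was made.

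The promoters of the sites described below are shown first, for the internal start of Pde4b that lay inside a peak in all 4 lists and for 3 starts that hold TGACG, the core of the cAMP response element. They run from 250 bases before a listed transcript start to 50 bases after it, are written 5′ to 3′ on the strand of the gene (plus in each), and come from RefSeq on GRCm38.p6, the assembly that mm10 names. Capitals mark the core TGACG on either strand, which reads CGTCA where it lies on the opposite strand.
Pde4b, internal start covered in all 4 lists, chr4:102569810-102570109: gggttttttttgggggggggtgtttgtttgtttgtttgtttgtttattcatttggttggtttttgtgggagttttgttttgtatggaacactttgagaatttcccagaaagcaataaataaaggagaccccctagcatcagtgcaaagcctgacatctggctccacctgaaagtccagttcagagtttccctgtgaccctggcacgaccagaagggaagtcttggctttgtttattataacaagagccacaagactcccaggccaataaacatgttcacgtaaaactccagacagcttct
Pde4b, start with no peak, chr4:102421305-102421604: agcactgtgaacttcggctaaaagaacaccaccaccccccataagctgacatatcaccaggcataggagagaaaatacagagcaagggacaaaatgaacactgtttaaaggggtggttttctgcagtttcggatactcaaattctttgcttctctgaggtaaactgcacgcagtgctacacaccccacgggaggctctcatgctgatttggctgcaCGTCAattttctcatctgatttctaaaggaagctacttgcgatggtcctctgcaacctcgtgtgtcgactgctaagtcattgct
Pde4a, internal start with a peak within 1 kb in 3 lists, chr9:21183851-21184150: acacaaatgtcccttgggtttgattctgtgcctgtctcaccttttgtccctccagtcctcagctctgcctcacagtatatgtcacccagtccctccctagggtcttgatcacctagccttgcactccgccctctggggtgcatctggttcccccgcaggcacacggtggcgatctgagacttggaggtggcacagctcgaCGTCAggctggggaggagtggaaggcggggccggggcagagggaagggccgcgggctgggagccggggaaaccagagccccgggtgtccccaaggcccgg
Pde8a, gene start with no peak, chr7:81213015-81213314: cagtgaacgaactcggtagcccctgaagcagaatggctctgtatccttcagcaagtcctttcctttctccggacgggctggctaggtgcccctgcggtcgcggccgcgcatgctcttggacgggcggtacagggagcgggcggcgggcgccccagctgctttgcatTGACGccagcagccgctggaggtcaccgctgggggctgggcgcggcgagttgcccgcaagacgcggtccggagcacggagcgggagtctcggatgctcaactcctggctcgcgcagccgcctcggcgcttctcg
The table of promoters matched 7 of the 10 genes, with 16 starts, and Pde3a, Pde3b and Pde7a are named only. The core TGACG was found on either strand at 4 of the 16 starts (25.0%), against 6837 of all 32851 listed starts (20.8%). Counted from the start, its first base on the printed strand lay at −34 for the start at 102421555 of Pde4b, at −50 for that at 21184101 of Pde4a, at −84 for Pde8a and at −166 for the start at 80038902 of Pde1a. The full element TGACGTCA, which contains the core on both strands, was in none of the 16, and in 588 of the 32851. The promoter of Pde4b that lay in a peak in all 4 lists held neither.

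Depth was similar between the immunoprecipitates, at 27923780 and 31676748 kept tags with dDAVP and 32705755 and 31283282 with vehicle, but the lists were not of similar length. In experiment 1 the dDAVP list held 37235 peaks over 98.97 Mb and the vehicle list 39745 peaks over 104.09 Mb, while in experiment 2 the dDAVP list held 20124 peaks over 33.55 Mb and the vehicle list 29597 peaks over 56.88 Mb. Over the 15425 genes with a peak in their window in all 4 lists, the median ratio of covered bases, dDAVP over vehicle, was 0.981 in experiment 1 and 0.667 in experiment 2, and every value below is to be read beside these medians. The gene starts of all 7 principal cell markers, among them Aqp2 and Avpr2, and of all 4 epithelial markers were called in all 4 lists, as were 1 of 5 intercalated cell, 1 of 5 proximal tubule and none of the 16 thick limb, endothelial, fibroblast and leukocyte markers. Among the latter, 3 of 4 thick limb, 4 of 4 endothelial, 2 of 4 fibroblast and 3 of 4 leukocyte markers were in no list. The rest of them were called in some lists. The labelled cell type thus carried its defining marks, beside some called starts of other types.

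Most of the phosphodiesterase genes had no called peak at the start of the gene span, though some had one at an internal start. A gene start, the 1 kb on either side of it, was called in all 4 lists for 2 of the 10 genes, Pde4c and Pde7a, and in no list for 7, while that of Pde4a was called in both lists of experiment 1 only. Over all protein-coding genes 43.9% were called in all 4 lists and 47.0% in none. For Pde3a, Pde3b and Pde7a the strand is not given in the table used here, and both gene ends were taken. When any listed transcript start was counted instead, 2 of the 7 genes with such starts were called in all 4 lists, Pde4b and Pde4c, against 46.9% of 17492 genes. By that count 3 of the 7 were called in no list, Pde4d, Pde8a and Pde10a. The share over all genes is not given for that count. Windows with no peak in any list made up 22.6% of all genes and 2 of the 10, Pde3a and Pde3b.

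**Figure D1:**
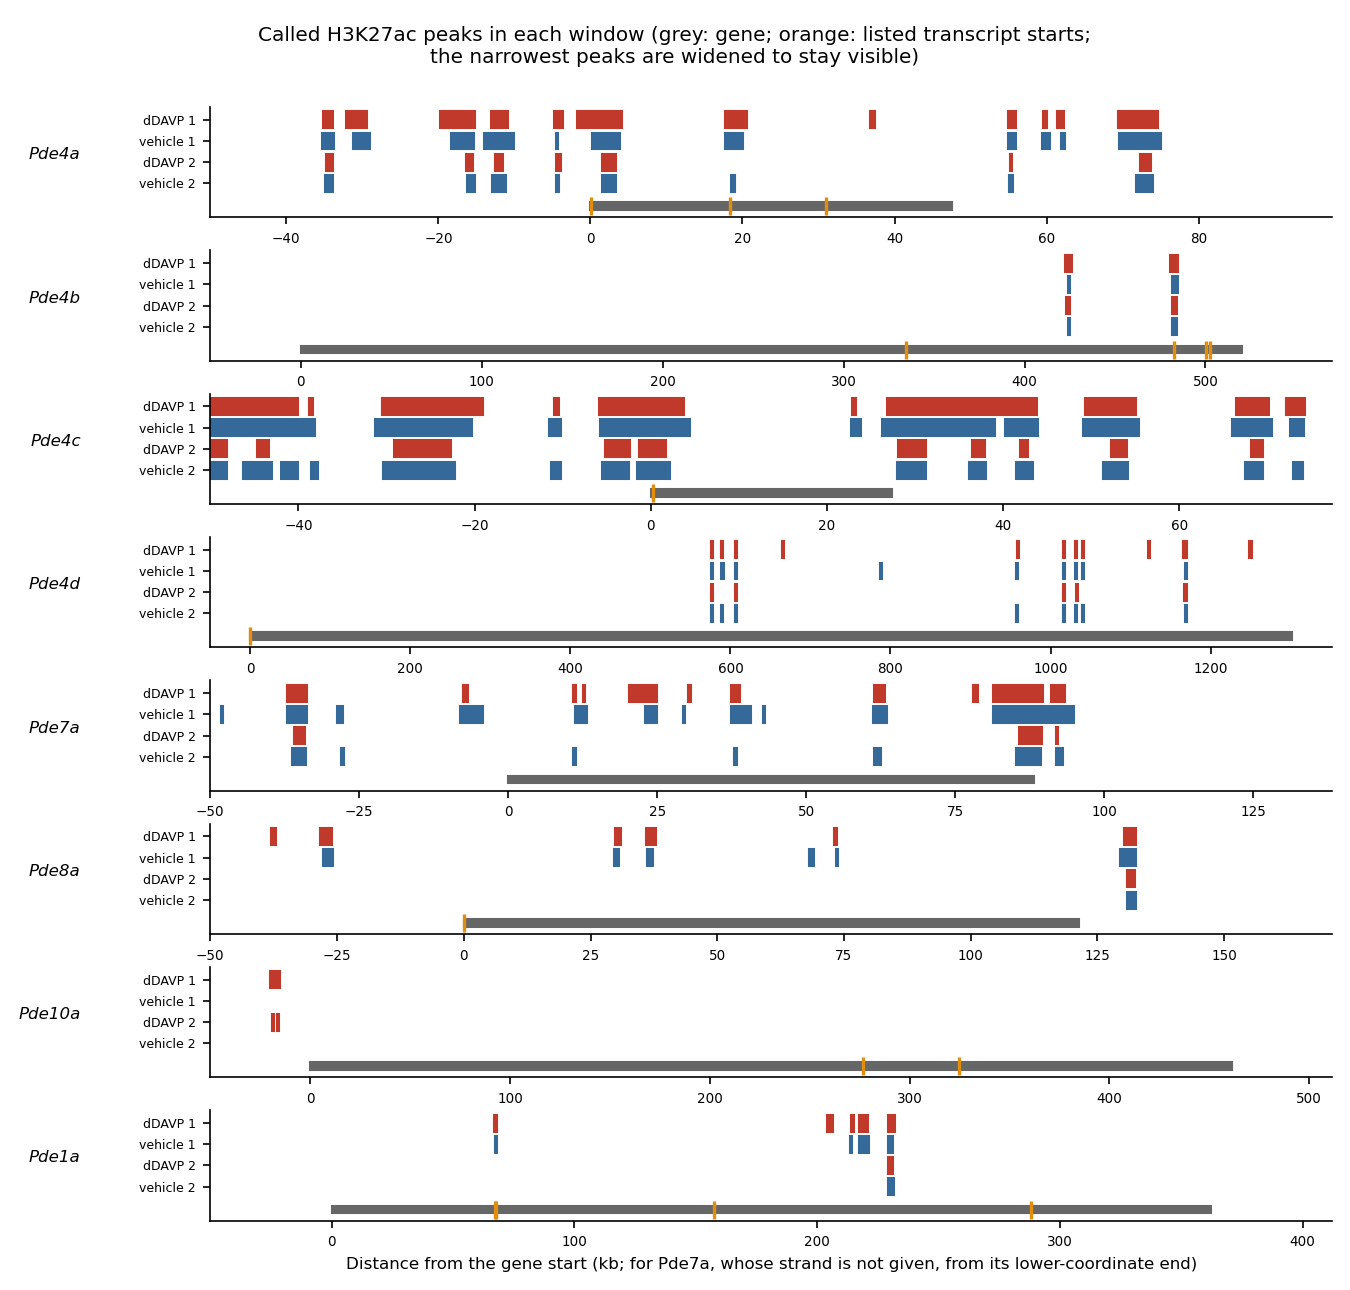
Peaks called in the windows of the 8 phosphodiesterase genes that had any, by distance from the gene start in kb, with 1 row per list (red, dDAVP; blue, vehicle), the gene in grey and listed transcript starts in orange. Pde4b shows 2 regions far from its gene start, Pde4d shows 12 scattered regions, and Pde10a shows peaks in the dDAVP rows only.

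The 8 windows with peaks held 62 separate regions, formed by merging overlapping peaks of the 4 lists, of which 33 lay inside the gene, 23 in the flanks and 6 within 1 kb of a start. All 4 lists called 24 of the 62, and a further 13 were called in both lists of experiment 1 and in no other. Over the 45705 regions of the genome, 36.2% were in all 4 lists. Of the 62 regions, 10 touched the end of another gene, and 5 of those were in the window of Pde4c. Acetylation in a flank therefore need not belong to the phosphodiesterase gene.

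Pde4b, which encodes a cAMP-specific enzyme of the rolipram-sensitive family, had more H3K27ac after dDAVP in both experiments. Among the 7 genes with a peak in all 4 lists it was the only one. Pde10a, described below, had peaks with dDAVP only and was not among the 7. The window of Pde4b held 8459 covered bases with dDAVP against 4332 with vehicle in experiment 1, and 5178 with dDAVP against 3350 with vehicle in experiment 2. The dDAVP value lay above the vehicle value in each experiment, in a data set where most windows ran the other way. The mean was 6819 ± 2320 bases with dDAVP and 3841 ± 694 bases with vehicle (SD, n = 2 each). The ratios, dDAVP over vehicle, were 1.95 and 1.55, a mean log2 difference of 0.80 ± 0.24 (SD, n = 2 experiments). Covered bases were higher with dDAVP in both experiments for 1 of the 7 genes with a peak in all 4 lists and for 1.56% of all 15425 such genes. A larger value of the smaller of its 2 ratios was held by 11 of those 15425 genes. The call was lost when every list was cut to equal covered bases, where Pde4b had no vehicle peak in experiment 1.

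The summed signal, which adds over all peaks the scaled pileup (mean tag coverage of a peak per 1000000 tags) times the length in kb, separated the groups further at Pde4b. It was 8.34 with dDAVP against 2.73 with vehicle in experiment 1, and 5.13 with dDAVP against 2.58 with vehicle in experiment 2. The vehicle values were close to each other and the dDAVP values were 3.06 and 1.99 times as high, a mean log2 difference of 1.30 ± 0.44 (SD, n = 2 experiments). Summed signal was higher with dDAVP in both experiments for 1 of the 7 genes, and for 0.674% of all genes with a peak in the 4 windows, with 6 of the 15425 genes exceeding Pde4b in the smaller ratio. The median ratio of summed signal over all of those genes was 0.989 in experiment 1 and 0.588 in experiment 2. With 2 lists against 2, an exact permutation test cannot give a two-sided p below 0.333. Within the 2 pairs compared here its limit is 0.5, so no test was made. More acetylated cells and more acetylation per cell cannot be told apart in these bulk libraries.

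**Figure D2:**
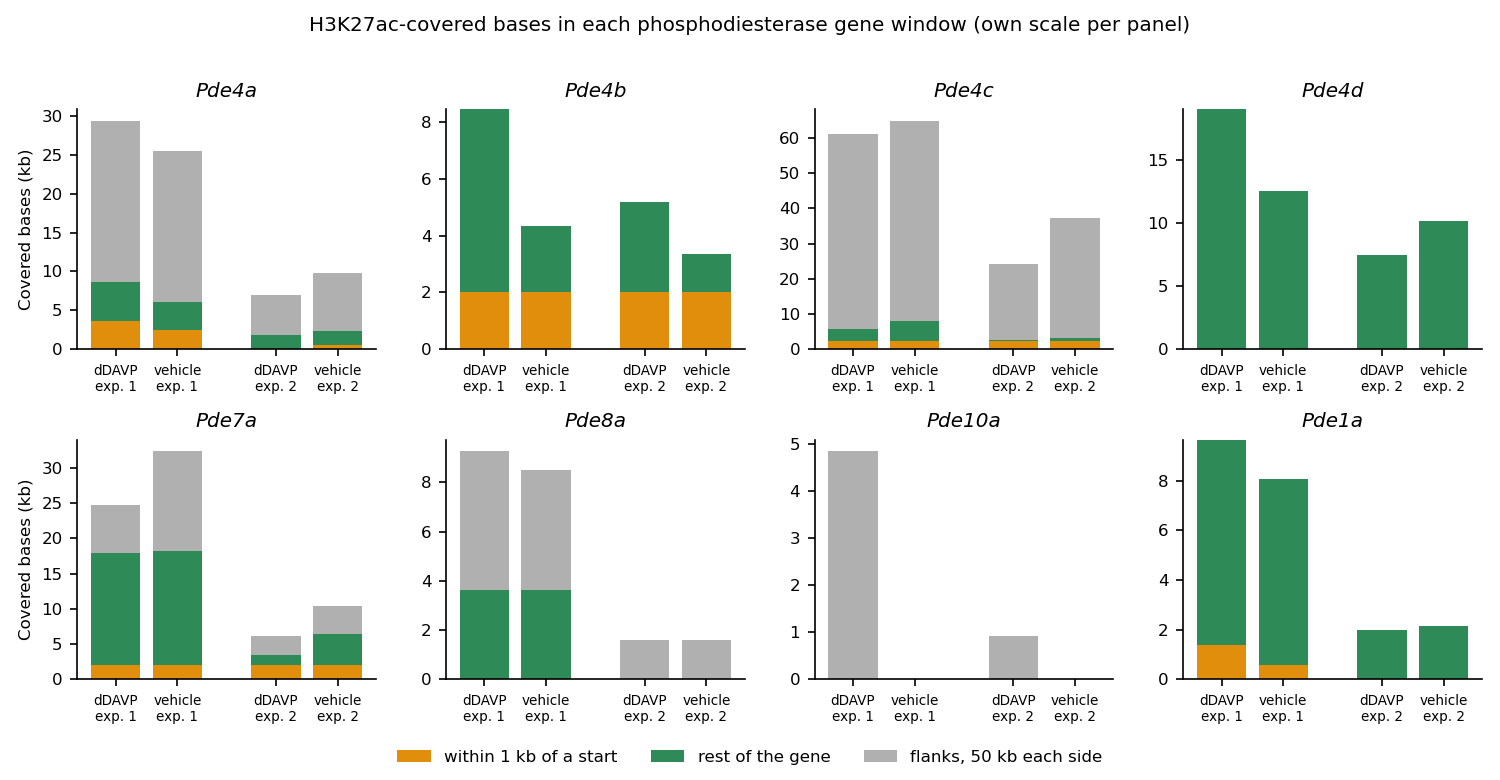
Bases covered by H3K27ac peaks (kb) in the window of each phosphodiesterase gene with peaks, for dDAVP and vehicle in experiments 1 and 2, stacked by place: within 1 kb of a start, in the rest of the gene, and in the flanks. At Pde4b both dDAVP bars, at 8459 and 5178 bases, stand above their vehicle bars, at 4332 and 3350 bases, while the window within 1 kb of its covered start is filled by peaks in all 4 lists and could not differ.

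All of the covered bases of Pde4b came from 2 regions inside the gene, and both were called in all 4 lists. The first, chr4:102509711-102513786 (mm10), lay 424 kb into the gene and 56.3 kb upstream of the internal start at 102570060. Whether it is exonic or intronic is not given in the annotation used here. It spanned 4076 bases with dDAVP against 913 with vehicle in experiment 1, and 2136 with dDAVP against 762 with vehicle in experiment 2. Its scaled pileup was 0.895 with dDAVP against 0.522 with vehicle in experiment 1, and 0.882 with dDAVP against 0.493 with vehicle in experiment 2. The lists of a treatment thus nearly matched in height across experiments, and dDAVP stood above vehicle in each experiment. The width ratios were 4.46 and 2.80 and the pileup ratios 1.71 and 1.79. Of the 16537 regions called in all 4 lists, 1 had a larger smaller-of-2 width ratio, and 0 had a larger smaller-of-2 pileup ratio. For the pileup that count was also 0 with the pileup as deposited, where the ratios were 1.46 and 1.76, and with the pileup scaled by fragment length too, where they were 1.62 and 1.75.

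In the caller's own terms, the authors' fold enrichment of that region over the local background was 5.40 and 6.19 with dDAVP, against 3.47 and 3.64 with vehicle. The authors' −log10 q-value was 12.8 and 14.1 with dDAVP, against 4.79 and 4.36 with vehicle. These are values of single peaks and describe them within their lists. Within its list the pileup stood at the percentile 78.2 and 75.2 with dDAVP, against 53.2 and 42.3 with vehicle. The vehicle peaks were thus near the middle of their lists in height and the dDAVP peaks in the upper part of theirs.

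The second region, chr4:102567682-102572064, covered the internal transcript start at 102570060, the promoter printed first above. Here the peak was already broad in vehicle. It spanned 4383 bases with dDAVP against 3419 with vehicle in experiment 1, and 3042 with dDAVP against 2588 with vehicle in experiment 2. Its scaled pileup was 1.07 with dDAVP against 0.658 with vehicle in experiment 1, and 1.07 with dDAVP against 0.850 with vehicle in experiment 2. Width ratios were 1.28 and 1.18 and pileup ratios 1.63 and 1.26, so that the difference was in height more than in width. Of the 16537 regions, 179 had a larger smaller-of-2 width ratio and 61 a larger smaller-of-2 pileup ratio. The gene start of Pde4b at 102087332 and its other 3 listed starts, at 102421555, 102587558 and 102589843, had no peak within 1 kb in any list. No other region lay within the window, and the nearest outside was 216 kb from the gene.

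**Figure D3:**
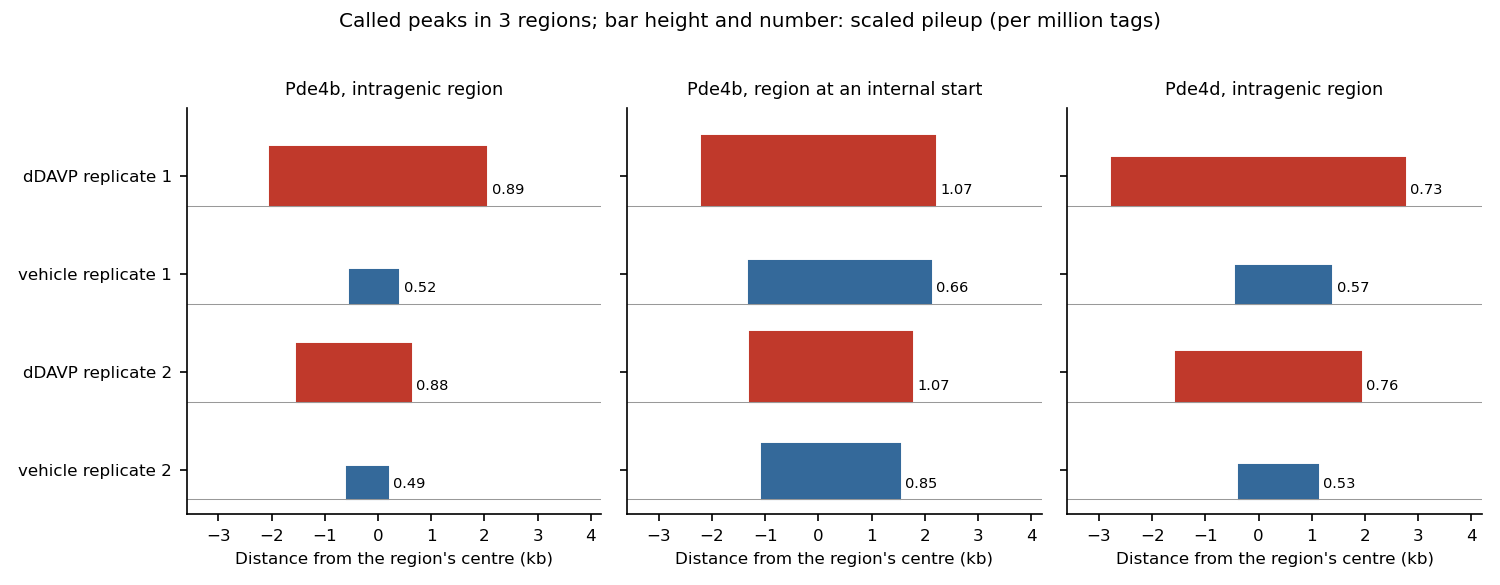
Called peaks of the intragenic Pde4b region, the Pde4b region at the internal start and an intragenic Pde4d region, by distance from the centre of the region in kb, with 1 row per list (red, dDAVP; blue, vehicle) and bar height and number giving the scaled pileup. In each region both dDAVP peaks are wider and higher than the vehicle peak of the same experiment.

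Pde4d, another cAMP-specific enzyme of that family, carried its acetylation deep inside the gene. All 12 of its regions were intragenic, between 576 and 1249 kb from the gene start, and the gene start at 108654177, the only one listed, had no peak. A region at a start that is not listed would also be classed as intragenic here. Covered bases were 18970 with dDAVP against 12495 with vehicle in experiment 1, and 7449 with dDAVP against 10150 with vehicle in experiment 2, opposite directions in the 2 experiments. Summed signal was 11.8 with dDAVP against 6.64 with vehicle in experiment 1, and 4.97 with dDAVP against 5.22 with vehicle in experiment 2. The dDAVP list called 11 of the regions and the vehicle list 9 in experiment 1, and the dDAVP list 5 and the vehicle list 8 in experiment 2. The ratios of summed signal were 1.78 and 0.951, both above the medians over all genes (0.989 and 0.588), and 148 of the 15425 genes had a larger smaller ratio. Under 3 other settings summed signal was higher with dDAVP in both experiments. These were peaks of a −log10 q-value of at least 5 and lists of equal length overall or within each experiment. It was not with flanks of 10 or 100 kb, without the ends of other genes, or with pileup as deposited or also scaled by fragment length. With equal covered bases Pde4d was not among the genes with a peak in every list.

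A Pde4d region was wider and higher with dDAVP in both experiments. At chr13:109819615-109825110, which lay 1168 kb into the gene, the peak spanned 5496 bases with dDAVP against 1800 with vehicle in experiment 1, and 3481 with dDAVP against 1496 with vehicle in experiment 2. Scaled pileup was 0.732 with dDAVP against 0.571 with vehicle in experiment 1, and 0.757 with dDAVP against 0.532 with vehicle in experiment 2. The groups did not overlap in either measure, but the share of the 16537 regions with such a separation is not given here. The width ratios of 3.05 and 2.33 were exceeded, in the smaller of the 2, by 5 of 16537 regions, and the pileup ratios of 1.28 and 1.42 by 50. A second region of Pde4d, chr13:109669580-109672518, was higher in both experiments while its width went opposite ways, with a scaled pileup of 0.510 with dDAVP against 0.420 with vehicle in experiment 1, and 0.601 with dDAVP against 0.441 with vehicle in experiment 2. A further one, chr13:109229303-109231568, was wider in both while its pileup went opposite ways, at 2266 bases with dDAVP against 954 with vehicle and 765 with dDAVP against 704 with vehicle.

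Among the 24 regions of these genes that all 4 lists called, both experiments had a wider peak with dDAVP at 6 (4.78% over the genome) and a narrower one at 11 (51.3%). Pileup was higher with dDAVP in both at 4 (10.5%) and lower in both at 11 (46.7%). Wider and higher together held for 3 (1.08%), the Pde4b pair and the Pde4d region above. The genome shares were not split by place. Of the 8 intragenic regions, 3 were wider and 0 narrower in both experiments, and 3 were higher and 2 lower. The wider and the higher ones all lay in Pde4b and Pde4d. A single one of the 8, in the Pde4c window, reached out of the gene over the ends of Rab3a, Mpv17l2, Ifi30 and Pik3r2. Of the 12 flank regions, 1 was wider, 9 narrower, 0 higher and 8 lower. The classes were not compared by a test.

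**Figure D4:**
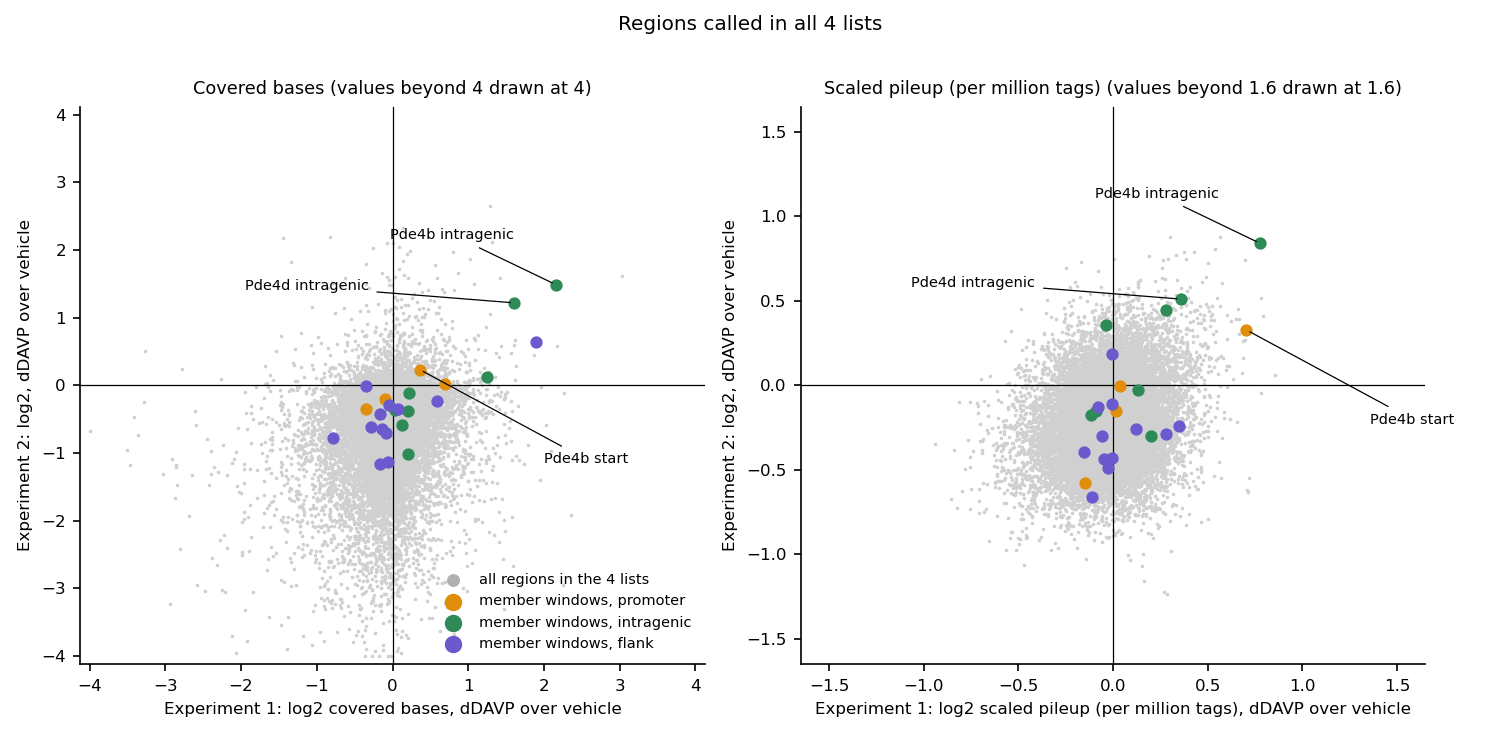
Log2 ratio, dDAVP over vehicle, of covered bases (left) and of scaled pileup (right) in experiment 1 against experiment 2, for the 16537 regions called in all 4 lists (grey) and the 24 of them in the windows of the phosphodiesterase genes, coloured by place. The intragenic Pde4b region lies at the upper right edge in both panels, and the flank regions lie mostly below 0 in experiment 2.

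Pde4a, a cAMP-specific enzyme of the same family, had a start region wider in experiment 1 than in experiment 2 with either treatment. Its window held 29381 covered bases with dDAVP against 25467 with vehicle in experiment 1, and 6994 with dDAVP against 9729 with vehicle in experiment 2. The directions were opposite. The region at the gene start, chr9:21163955-21169798, spanned 5844 bases with dDAVP against 3614 with vehicle in experiment 1, and 1794 with dDAVP against 1772 with vehicle in experiment 2. In experiment 2 both peaks began more than 1 kb downstream of the gene start, at 1.55 kb with dDAVP and 1.58 kb with vehicle. Although wider, the region was lower with dDAVP, with a scaled pileup of 1.11 with dDAVP against 1.23 with vehicle in experiment 1, and 0.921 with dDAVP against 1.38 with vehicle in experiment 2.

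The internal start of Pde4a at 21184101, whose promoter is printed above, had a region of 2897 bases with dDAVP against 2403 with vehicle in experiment 1, and of 0 with dDAVP against 560 with vehicle in experiment 2. The start lay inside the peaks of experiment 1, while the vehicle peak of experiment 2 began downstream of it. A small upstream region, chr9:21160961-21162049, was wider with dDAVP in both experiments, at 1089 bases with dDAVP against 292 with vehicle and 677 with dDAVP against 433 with vehicle. Its pileup went opposite ways. Of the 12 regions in the window, 3 touched the ends of other genes, Tyk2, Cdc37 and Keap1. The outermost region inside the window lay 33.7 kb from the gene, and the nearest one left outside lay 51.0 kb from it.

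Pde4c, the remaining cAMP-specific enzyme of that family, sat in gene-dense chromatin and had the most covered window of the 10, mostly in flanks. Its window held 61095 covered bases with dDAVP against 64929 with vehicle in experiment 1, and 24277 with dDAVP against 37155 with vehicle in experiment 2, fewer with dDAVP in both. Fewer covered bases in both experiments were found for 2 of the 7 genes and for 54.5% of all genes, and lower summed signal for 2 of the 7 and for 52.9% of all genes. Those shares are the rule rather than the exception in these lists. In experiment 1, 55369 of the covered bases of Pde4c with dDAVP and 57098 with vehicle lay in the flanks. In experiment 2, the flanks held 21593 with dDAVP and 33922 with vehicle. The start region of Pde4c, chr8:70717960-70728327, also reached the ends of Iqcn and Gm3336. It spanned 9630 bases with dDAVP against 10307 with vehicle in experiment 1, and 5980 with dDAVP against 6845 with vehicle in experiment 2.

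Pde7a, a cAMP-specific enzyme insensitive to rolipram, was the other gene with fewer covered bases after dDAVP in both experiments. Its window held 24797 covered bases with dDAVP against 32401 with vehicle in experiment 1, and 6139 with dDAVP against 10407 with vehicle in experiment 2. The ratios were 0.765 and 0.590, set against medians over all genes of 0.981 and 0.667. The region at its called end, chr3:19304386-19318008, spanned 10683 bases with dDAVP against 13623 with vehicle in experiment 1, and 4260 with dDAVP against 5450 with vehicle in experiment 2. Its height was nearly level, with a scaled pileup of 1.02 with dDAVP against 0.995 with vehicle and 1.129 with dDAVP against 1.133 with vehicle. Its window also held the single region called in both vehicle lists and neither dDAVP list, chr3:19194442-19195397, with 947 and 323 covered bases in vehicle. Of all regions, 2.51% had that pattern, and this one lost it with peaks of a −log10 q-value of at least 5, with lists of equal length overall or within each experiment, with equal covered bases and with 50% coverage.

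**Figure D5:**
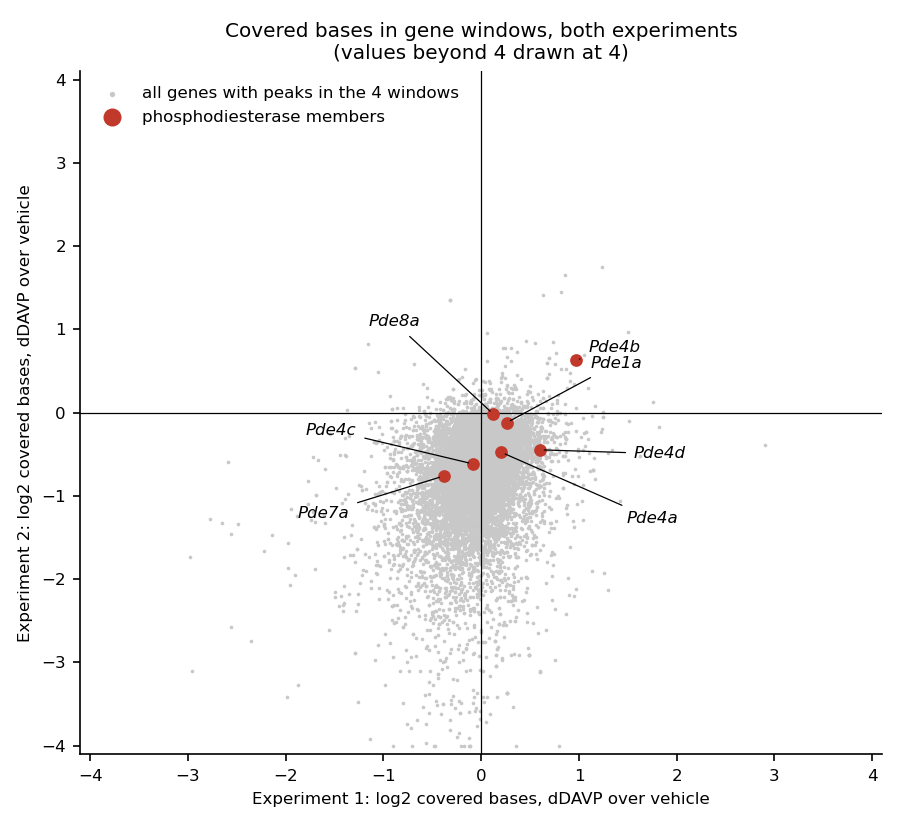
Log2 ratio of covered bases, dDAVP over vehicle, in experiment 1 against experiment 2 for the 15425 genes with a peak in their window in all 4 lists (grey) and the 7 phosphodiesterase genes among them (red). Pde4b lies at the upper right, more covered with dDAVP in both, and Pde4c and Pde7a in the lower left.

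Pde8a, a cAMP-specific enzyme with high affinity for its substrate, had no peak at its start. Its window held 9273 covered bases with dDAVP against 8521 with vehicle in experiment 1, and 1592 with dDAVP against 1609 with vehicle in experiment 2. The intragenic regions of Pde8a were called in experiment 1 only, 3613 bases with dDAVP against 3634 with vehicle. The window values therefore differed little between treatments within an experiment.

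Pde10a, which hydrolyses both nucleotides, had no peak inside the gene in any list. Its flank held the only region among the 62 called in both dDAVP lists and neither vehicle list, chr17:8505035-8509885, a class with 29 regions in the genome (0.0635%). It covered 4851 bases in dDAVP replicate 1 and 931 bases, in 2 separate peaks, in dDAVP replicate 2, against 0 in both vehicle lists. Its scaled pileup was 0.472 and 0.554 with dDAVP, at the percentiles 40.8 and 39.7 of their lists. The call was lost with peaks of a −log10 q-value of at least 5, with lists of equal length, with equal covered bases and with 50% coverage, and was kept with lists of equal length within each experiment. The region ended 15.3 kb upstream of the gene span, and its nearest listed transcript start lay farther away, 277 kb into the gene.

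Pde1a, the calcium and calmodulin dependent enzyme, had its peaks inside the gene. Its window held 9647 covered bases with dDAVP against 8052 with vehicle in experiment 1, and 1992 with dDAVP against 2164 with vehicle in experiment 2. The only region in all 4 lists, chr2:79964595-79967542, had a scaled pileup of 0.571 with dDAVP against 0.607 with vehicle in experiment 1, and 0.464 with dDAVP against 0.516 with vehicle in experiment 2. It was lower with dDAVP in both. Within its list that pileup stood at the percentile 57.1 and 18.2 with dDAVP, against 62.0 and 45.7 with vehicle. A region over 2 of its 4 listed starts, chr2:80128339-80129711, was called in experiment 1 only, with 1373 bases within 1 kb of a start with dDAVP against 557 with vehicle.

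Pde3a and Pde3b, the enzymes inhibited by cGMP, had 0 covered bases in all 4 lists. The nearest peaks lay 618 kb from Pde3a, in 1 list, and 53.4 kb from Pde3b, just outside its window, in 2 lists. A peak list holds only regions past the caller's limits, so an absent peak does not show that H3K27ac was absent.

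Among the other 14 genes named as phosphodiesterases, the start was called in all 4 lists for 3, Pde5a, which is specific for cGMP, Pde6d and Pde7b. It was called in no list for 10. Over all protein-coding genes these shares were 43.9% and 47.0%. None of the 11 with a peak in all 4 lists had more covered bases with dDAVP in both experiments, against 1.56% of all 15425 such genes. Fewer in both were found for 4, Pde6a, Pde6b, Pde8b and Pde11a, against 54.5% of all such genes. Pde7b, the closest relative of Pde7a, had 35204 covered bases with dDAVP against 27233 with vehicle in experiment 1, and 2672 with dDAVP against 8255 with vehicle in experiment 2. Pde5a had 4052 with dDAVP against 3223 with vehicle, and 1586 with dDAVP against 1888 with vehicle. Pde1b and Pde1c had no peak in their windows, like Pde3a and Pde3b.

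The intragenic differences depended in part on where the lists end. Peaks of a −log10 q-value of at least 5 left the first Pde4b region at 4076 and 2136 bases with dDAVP and 0 in both vehicle lists, and left the second unchanged. When each list was cut to the covered bases of the shortest, the first region was kept in dDAVP replicate 2 alone, and the second at 4383 and 3042 bases with dDAVP, against 0 and 2588 with vehicle. That cut kept the Pde4d region at 1168 kb in dDAVP replicate 2 alone, at 3481 bases, and the stricter q-value left it unchanged. With either cut dDAVP stood above or level with vehicle in each experiment. With a call requiring 50% of a region to be covered, the first Pde4b region, the Pde4d region at 1168 kb and the upstream region of Pde4a became dDAVP-only, and Pde10a no longer did.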

How the data were processed

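The values were H3K27ac peak lists from mpkCCD cells, 1 per immunoprecipitate, called by the authors with MACS 2.1.1.20160309 in broad mode against the matching input, per the file headers, with q limits of 0.01 and 0.1 and at most 1 tag per position. BWA, SAMtools and mm10 are named in the submitters' processing notes. The deposited pileup is a signal, the mean tag coverage of a peak, in units of the smaller of immunoprecipitate and input (27923780 and 30753752 tags with dDAVP, 32705755 and 31283282 with vehicle), per the file headers. The deposited fold enrichment is the authors' ratio to local background. The −log10 p-value and q-value columns had lost their names in the deposited lists and were recognised by order and values. The lists hang on the input records, while their headers name the immunoprecipitates, and peak names in both lists of experiment 2 carry another experiment number.

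From these, covered bases and pileup per 1000000 tags (scaled pileup) were computed in the RefSeq (GRCm38.p6) span plus 50 kb of each protein-coding gene, with Python 3.11.15, pandas 2.3.3 and numpy 2.4.6, and were tested on synthetic intervals with known answers. Peaks were clipped to the window. Peaks overlapping by at least 1 bp were merged into regions, and a list called a region it overlapped by at least 1 bp. A region was classed by a start within 1 kb, else inside the gene, else flank. The promoter sequences are RefSeq's for GRCm38.p6. dDAVP was set against vehicle within each experiment, since the sample titles give each pair its experiment number. No test was made. All 10 genes and the 14 relatives were named by rule, and these members and lists were chosen with earlier results of these data known. Read counts per region and the inputs themselves were not used here, so the error of a single peak's pileup is unknown and precision rests on 2 experiments. Alternatives were stricter or equally long lists, other windows, overlaps and scalings, and leaving out each list. The result of 1 flank region in the Pde8a window is not reported here.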

Additional observations from a re-analysis of the deposited data

How the results depend on the processing

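Under the alternatives that kept all 4 lists and left Pde4b a peak in each, its mean log2 differences were 0.80 to 1.15 for covered bases (7 settings) and 1.18 to 1.56 for summed signal (9 settings), of which those without the experiment as a replicate block were 0.83 and 1.35. With 1 list left out, 1 experiment gave 0.63 to 0.97 and 0.99 to 1.61. With every list cut to equal covered bases Pde4b lost its vehicle peaks in experiment 1: higher summed signal then held for 0 genes, and the 1 gene with more covered bases was Pde4a. With a −log10 q-value of at least 5, more covered bases and higher summed signal each held for 2 genes, Pde4b and Pde4d. Higher summed signal held for the same 2 with lists of equal length, overall or within each experiment. Leaving out the ends of other genes gave 2 for both measures, Pde4b and Pde8a. Pileup as deposited gave lower summed signal for 5 genes. dDAVP-only regions numbered 0 with equal length, equal covered bases and 10 kb flanks, and 3 with 50% coverage. With the stricter q-value the 1 region was the intragenic one of Pde4b, not that of Pde10a. Vehicle-only regions numbered 0 with the stricter q-value, both equal lengths, equal covered bases and 10 kb flanks. Leaving out 1 list at a time gave more covered bases for 1 to 5 genes, fewer for 2 to 6, higher summed signal for 1 to 5, lower for 2 to 6, and 1 to 10 regions of either exclusive class, since 1 experiment or 3 lists then decide. Without either list of experiment 1, Pde4b alone of the genes counted had more, and Pde10a, with no vehicle peak, was not counted. The mean log2 difference of Pde8a in covered bases ran from −0.52 with the stricter q-value to 0.53 without other genes' ends. The count of gene starts in all 4 lists was 2 under every setting run except a 2500 bp start window, which gave 3. The causes of these differences were not tested.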
